A study of Homo sapiens with 36 samples.

Results

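The secreted colony stimulating factors and interleukins CSF1, CSF2, CSF3, IL1A, IL1B, IL6, IL11, IL32 and LIF and the receptor chain IL7R form the set of 10 genes described here, taken by symbol from the 20633 genes listed over 4 deposited tables. MDA-MB-231, a human breast cancer line of mesenchymal type, had all 10 in both of its tables. 293T, a human embryonic kidney line, had 4 in each of its tables (CSF1, IL11, IL32 and LIF), and the other 6 were not listed there. In each line, 1 experiment compared cells given a control siRNA (siControl) with cells given siEglN2-1 or siEglN2-2, which target EglN2 (gene EGLN2), a prolyl hydroxylase. The other experiment compared a control shRNA (shControl) with shKDM5A-1 or shKDM5A-2, which target KDM5A, a demethylase of lysine 4 of histone H3. Each of the 12 groups had 3 RNA-seq libraries, 36 in all, and every group grew in the same serum-containing medium with no other agent named. The series' title concerns hydroxylation of proline 16 of histone H3, and the comparisons ask how the loss of either protein alters transcript levels. The labels do not say if replicate libraries were grown as separate cultures, so p-values measure the spread between these libraries, which may be technical.

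Colony stimulating factors drive the production and survival of myeloid cells: CSF1 acts on macrophages, CSF2 on granulocytes and macrophages, and CSF3 on neutrophils. IL6, IL11 and LIF share the signalling chain gp130 (gene IL6ST), and IL1A and IL1B share the receptor IL1R1. Many of these mRNAs are short-lived because AUUUA pentamers in their 3′ UTR recruit decay proteins, and many of their promoters respond to NF-kB. Breast cancer cells of mesenchymal type are known to secrete several of them.

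AUUUA pentamers are a feature the family is known for. The stretch where they are densest is shown for the 5 members with the most pentamers per kilobase of 3′ UTR. Each is 30 bases of the transcript strand, 5′ to 3′, in DNA letters, with the ATTTA pentamers in capitals, from the longest 3′ UTR per gene in GENCODE 29 on GRCh38.
CSF2, chr5:132076072-132076101, plus strand: ttttaaaatATTTATTTATTTATTTATTTA
CSF3, chr17:40016975-40017004, plus strand: tcccatgtATTTAtctctATTTAatATTTA
IL1B, chr2:112830003-112830032, minus strand: tgagcaaccgcttccctATTTATTTATTTA
IL6, chr7:22731697-22731726, plus strand: ttttaattatttttaATTTAttaatATTTA
IL11, chr19:55365951-55365980, minus strand: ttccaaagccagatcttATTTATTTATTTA

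The whole 3′ UTR of CSF2 held 8 pentamers (overlaps counted) in 318 bases, as many as or more than which 0.0688% of UTRs of similar length (within 20%) held. IL6 held 6 in 429 bases, matched or passed by 0.907% of UTRs of similar length. IL1B held 6 in 610 bases and CSF3 held 7 in 854 bases, with 1.51% and 2.14% of UTRs of similar length holding as many or more. For IL11, IL7R, IL1A and LIF this share was 5.83%, 16.4%, 16.7% and 49.7%. At the other end, CSF1 held 4 in 2154 bases, which 56.7% matched or passed, and IL32 held 0 in 464 bases. Of 19146 genes, 67.6% held at least 1 pentamer, so its presence alone does not set the members apart.

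A second stretch is shown for CSF2 and IL1B, the members with the lowest log2 fold changes after EglN2 siRNA, because both hold the 7 bases GACAGAA in the 3′ UTR. This match was known from earlier results of these data, so the shares given below describe it and are no test of it. With the shRNAs, CSF2 fell further than with the siRNAs, at log2 fold changes of -2.41 and -3.05. IL1B fell less with them, at -0.79 and -1.73.
CSF2, chr5:132076029-132076058, plus strand: tattttatactGACAGAAatcagtaatatt
IL1B, chr2:112830076-112830105, minus strand: aaagcccgcctGACAGAAaccacggccaca

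GACAGAA, searched on the transcript strand, was found in the 3′ UTR of 2 of the 10 members and of 13.7% of 19146 genes. Among UTRs of similar length, 1.72% held it for CSF2 and 5.55% for IL1B. No siRNA or shRNA sequence is given in the sources used here, and the part of this match in the results was not tested.

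Promoters were searched on both strands, 250 bases upstream of each start site in RefSeq on GRCh38.p14, for the NF-kB consensus and for TGANTCA, the core bound by AP-1. Of the members, 7 were matched in this table, and CSF1, CSF3 and LIF had no entry. The NF-kB consensus was found at IL6 and IL32, beside 9.96% of 35116 promoters, and TGANTCA was found at IL1A and IL11, beside 6.57%. A member counted if any of its start sites had a match, whereas the shares are per start site, so the 2 measures are not alike. The NF-kB matches, in capitals, are shown for the inflammatory genes IL6 and IL32, which changed in opposite directions with the EglN2 siRNAs. They began 73 and 99 bases upstream of the start site.
IL6, chr7:22727117-22727146, plus strand: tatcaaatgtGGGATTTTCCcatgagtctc
IL32, chr16:3065294-3065323, plus strand: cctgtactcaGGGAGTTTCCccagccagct

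Library totals ran from 14361177 to 18011723 estimated counts in the MDA-MB-231 siRNA experiment, 14850567 to 19661516 in its shRNA experiment, 20535505 to 27592124 in the 293T siRNA experiment and 17176744 to 23417896 in its shRNA experiment. Levels are given as CPM, counts relative to the scaled library total. The targets were lower in every knockdown library: EGLN2 fell from 105 to 106 CPM in MDA-MB-231 controls to between 20.8 and 25.1 CPM, and KDM5A fell from between 47.0 and 54.9 CPM to between 16.1 and 19.4 CPM. In 293T, EGLN2 went from between 60.2 and 73.6 CPM to between 21.9 and 22.7 CPM, and KDM5A from between 66.2 and 67.5 CPM to between 26.3 and 32.7 CPM. The other target moved less. In MDA-MB-231, KDM5A had log2 fold changes of -0.19 and -0.17 with the siRNAs (edgeR adjusted p of 0.00137 and 0.00353). EGLN2 there had -0.11 with shKDM5A-1 (0.0181) and -0.08 with shKDM5A-2 (0.0549). In 293T, EGLN2 was higher by 0.16 with shKDM5A-2 (0.00800), and the remaining edgeR adjusted p ran from 0.191 to 0.330. Markers fitted the line labels. Of 7 markers of 293T, 7 were listed in 293T and 0 in MDA-MB-231. Of 8 mesenchymal markers, 8 were listed in MDA-MB-231 and 7 in 293T. Their summed level was 8083 to 8212 CPM in siControl and 8301 to 8369 CPM in shControl of MDA-MB-231. In 293T it was 903 to 953 and 1544 to 1558 CPM. In MDA-MB-231 it was 7697 to 7759 CPM with siEglN2-1, 7608 to 7778 with siEglN2-2, 7768 to 7833 with shKDM5A-1 and 6343 to 6401 with shKDM5A-2. Of 5 epithelial markers, 2 were listed in MDA-MB-231. In 293T, 1 siControl library that carries no replicate number stood apart, with KDM5A at 40.0 CPM against 56.5 and 57.0 CPM in the other siControl libraries. Its chi-square per degree of freedom over genes was 19.2 and 22.8 against those libraries, which gave 2.02 between them. Leaving it out changed the call or sign of 1 of 16 member values. The largest move was that of IL32 between lines for EglN2, from 0.40 to 0.15 on the log2 scale. In MDA-MB-231, siControl replicate 1 differed from the other siControl libraries with a chi-square per degree of freedom over genes of 6.72 and 7.66, against 1.57 between those. Without it, 0 of 54 member values changed their call or sign, and the largest move was that of IL7R in the comparison of targets, from 1.45 to 1.54 on the log2 scale.

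Immune cells are a main source of these cytokines elsewhere in the body, and 13 immune markers were examined. In MDA-MB-231, 5 were listed in the siRNA experiment and 6 in the shRNA experiment, most of their summed level being CD68, a lysosomal protein gene, at 87.5 CPM in siControl and 103 CPM in shControl. CD3E, MS4A1, ITGAM, NKG7 and HBB were not listed, and PTPRC, the common leukocyte antigen gene, stood at 0.527 CPM in shControl and was not listed in the siRNA experiment. CSF1R is among these markers and also among the receptors described further on. The summed level was 94.3 to 103 CPM in siControl, 78.8 to 83.3 with siEglN2-1, 75.9 to 79.7 with siEglN2-2, 115 to 121 in shControl, 146 to 154 with shKDM5A-1 and 94.2 to 95.7 with shKDM5A-2. The part of these markers in the results was not tested. In these bulk libraries, fewer cells expressing a gene and less RNA per cell cannot be told apart.

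In MDA-MB-231, most members fell with every reagent. With the EglN2 siRNAs, 7 of the 10 fell and IL32 and IL7R rose with both reagents, whereas IL1A passed the test with neither. With the KDM5A shRNAs, all 10 fell with shKDM5A-1 and 9 with shKDM5A-2, IL7R being the exception, and none rose. A call is an adjusted p under 0.05 in edgeR's quasi-likelihood test over all genes of the table. Both reagents of an experiment share its 3 control libraries, so their counts are not independent.

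**Figure D1:**
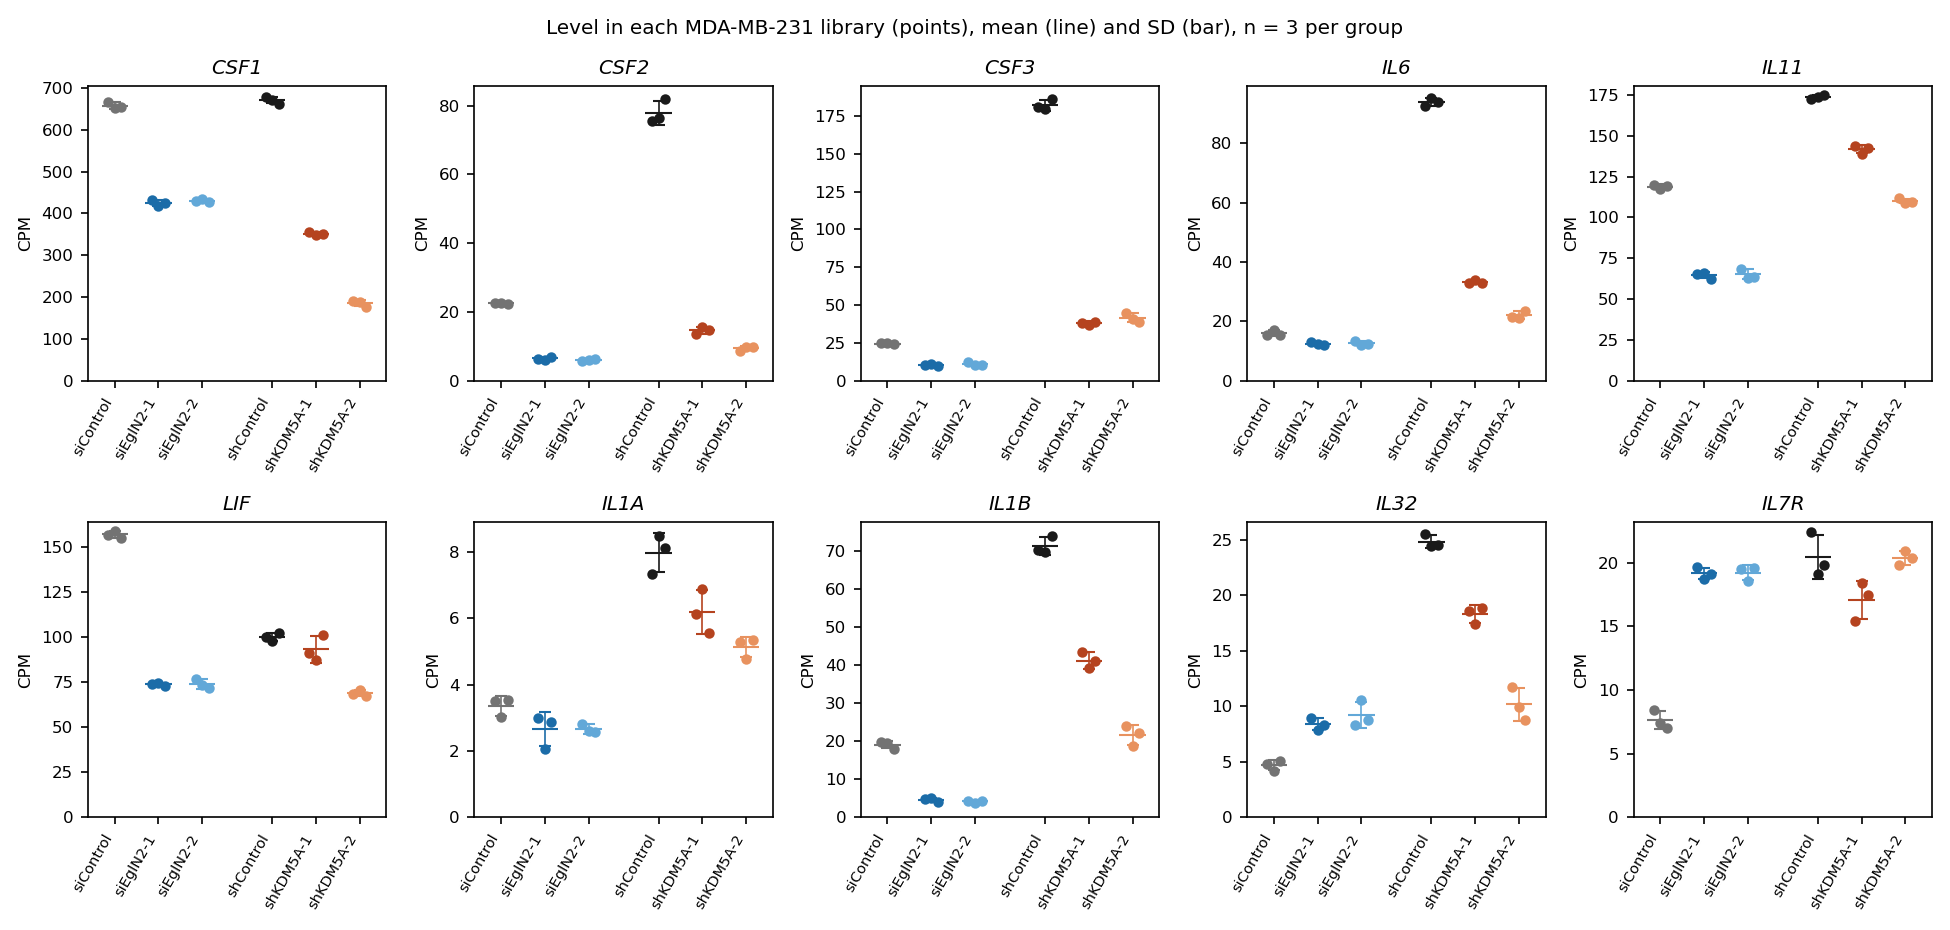
Level of each of the 10 members, in CPM, in the 18 MDA-MB-231 libraries. Points are libraries, lines are group means and bars are SD, with 3 libraries per group; CSF2 shows both experiments' knockdown libraries below their own controls, and IL7R rises with the siRNAs alone.

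These counts stand against many changed genes. Of 15109 genes tested, siEglN2-1 had 21.5% called higher and 23.0% lower, and siEglN2-2 had 21.8% higher and 23.6% lower. Both siRNAs together called 18.3% higher and 20.4% lower, and of the members 2 and 7. Of 15454 genes tested, shKDM5A-1 had 28.1% higher and 27.2% lower, and shKDM5A-2 had 29.4% higher and 29.6% lower. Both shRNAs together called 16.4% higher and 15.8% lower, and of the members 0 and 9. The members' median log2 fold change was -0.76 and -0.74 with siEglN2-1 and siEglN2-2, and -0.62 and -1.51 with shKDM5A-1 and shKDM5A-2, beside 0.00 for all genes tested in each of the 4 comparisons.

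Among the colony stimulating factors, CSF2 had the lowest fold changes. CSF2 (chr5:132073790-132076170, plus strand) encodes GM-CSF. Its level was 22.7, 22.7 and 22.4 CPM in the siControl libraries, 6.32, 6.15 and 6.90 with siEglN2-1 and 5.65, 5.9995 and 6.42 with siEglN2-2. In the other experiment it was 75.4, 76.5 and 81.9 CPM in shControl, 13.7, 15.7 and 14.7 with shKDM5A-1, and 8.73, 9.67 and 9.76 under shKDM5A-2. No knockdown library came near its controls in either experiment. The log2 fold changes were -1.80 ± 0.09 (SE) and -1.90 ± 0.09 with the siRNAs and -2.41 ± 0.06 and -3.05 ± 0.06 with the shRNAs. The decrease was thus 3.49-fold and 3.74-fold with the siRNAs and 5.32-fold and 8.30-fold with the shRNAs, with edgeR adjusted p from 2.32e-28 to 1.64e-21.

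CSF3 (chr17:40015361-40017813, plus strand) encodes G-CSF. It was at 24.7, 24.6 and 24.3 CPM in siControl, 10.5, 10.9 and 9.40 with siEglN2-1 and 12.1, 10.3 and 10.4 with siEglN2-2. In the shRNA experiment it was at 181, 179 and 186 CPM in shControl, 38.4, 36.9 and 39.1 with shKDM5A-1, and 45.0, 40.9 and 38.9 under shKDM5A-2. Knockdown and control libraries were apart in both experiments. The log2 fold changes were -1.26 ± 0.08 and -1.17 ± 0.08 with the siRNAs and -2.26 ± 0.04 and -2.13 ± 0.04 with the shRNAs.

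CSF1 (chr1:109910242-109930992, plus strand) encodes M-CSF and was the most abundant member. It was at 667, 652 and 653 CPM in siControl, 432, 417 and 424 with siEglN2-1 and 431, 433 and 428 with siEglN2-2. In the shRNA experiment it was at 679, 672 and 662 CPM in shControl, 356, 348 and 350.5 with shKDM5A-1, and 191, 189 and 177 under shKDM5A-2. Each group was tight and apart from its controls, and shKDM5A-2 libraries were the lowest. The log2 fold changes were -0.63 ± 0.02, -0.61 ± 0.02, -0.93 ± 0.03 and -1.85 ± 0.03, in that order of reagents.

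The IL-6 family split by experiment: LIF and IL11 fell further with the EglN2 siRNAs, and IL6 with the KDM5A shRNAs. IL6 (chr7:22725884-22732002, plus strand), a cytokine of the acute phase response, was at 15.5, 17.1 and 15.4 CPM in siControl, 13.01, 12.4 and 12.1 with siEglN2-1 and 13.4, 11.999 and 12.5 with siEglN2-2. With the shRNAs it fell from 92.7, 95.1 and 93.7 CPM in shControl to 32.7, 33.8 and 32.9 with shKDM5A-1, and 21.6, 21.1 and 23.6 under shKDM5A-2. The groups did not overlap, although the siRNA libraries lay only a few CPM below their controls. Its log2 fold changes were -0.36 ± 0.08 and -0.34 ± 0.08 with the siRNAs (edgeR adjusted p of 3.72e-04 and 5.96e-04) and -1.50 ± 0.04 and -2.09 ± 0.05 with the shRNAs. IL6 overlaps STEAP1B and another gene on the opposite strand over 474 exon bases, and the strand setting of the counting is not given.

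LIF (chr22:30240447-30246851, minus strand), leukemia inhibitory factor, signals through LIFR and gp130. Its level was 157, 159 and 155 CPM in siControl, 73.8, 74.4 and 73.1 with siEglN2-1 and 76.9, 73.2 and 71.6 with siEglN2-2. In the shRNA experiment the values were 99.9, 98.1 and 102 CPM in shControl, 91.2, 87.1 and 101 with shKDM5A-1, and 68.4, 70.8 and 67.3 under shKDM5A-2. Both siRNA groups and shKDM5A-2 were clear of their controls, and 1 shKDM5A-1 library lay within the control range. The log2 fold change was -1.09 ± 0.03 with each siRNA, -0.10 ± 0.04 with shKDM5A-1 and -0.54 ± 0.04 with shKDM5A-2. The shKDM5A-1 value had an edgeR adjusted p of 0.0380, and with DESeq2 it was 0.0928. That call was also lost, at adjusted p of 0.0682, 0.141, 0.120, 0.240 and 0.0561, without shControl replicate 1 or 3, shKDM5A-1 replicate 1 or 2, or shKDM5A-2 replicate 1. LIF shares 267 exon bases with the opposite-strand genes LIF-AS1 and AC004264.1.

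IL11 (chr19:55364389-55370463, minus strand) acts through IL11RA and gp130. It stood at 120.1, 117 and 119 CPM in siControl, 65.2, 66.2 and 62.6 with siEglN2-1 and 68.6, 63.1 and 63.7 with siEglN2-2. With shControl it was at 173, 174 and 175 CPM, with shKDM5A-1 at 144, 139 and 142 and with shKDM5A-2 at 112, 109 and 109. All knockdown libraries were below all controls of their experiment. The log2 fold changes were -0.88 ± 0.04 and -0.87 ± 0.04 with the siRNAs and -0.29 ± 0.03 and -0.66 ± 0.03 with the shRNAs.

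Of the IL-1 genes, IL1B fell with all 4 reagents, and IL1A was called with the shRNAs only. IL1B (chr2:112829751-112836903, minus strand) encodes a precursor that caspase-1 cleaves to the active cytokine. It was at 19.8, 19.5 and 17.98 CPM in siControl, 4.69, 5.12 and 4.02 with siEglN2-1 and 4.35, 3.74 and 4.39 with siEglN2-2. In the shRNA experiment it was at 70.2, 69.8 and 74.1 CPM in shControl, 43.5, 39.2 and 41.1 with shKDM5A-1, and 23.9, 18.6 and 22.1 under shKDM5A-2. No knockdown library reached the range of its controls, and the siRNA fold changes were the lowest of the members. The log2 fold changes were -2.05 ± 0.10 and -2.20 ± 0.10 with the siRNAs and -0.79 ± 0.05 and -1.73 ± 0.06 with the shRNAs.

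IL1A (chr2:112773915-112784590, minus strand) acts on the same receptor without needing cleavage by caspase-1. Its level was low, at 3.51, 3.03 and 3.54 CPM in siControl, 3.002, 2.07 and 2.89 with siEglN2-1 and 2.82, 2.59 and 2.58 with siEglN2-2, from 36 to 54 counts. With the shRNAs it declined from 7.35, 8.49 and 8.13 CPM in shControl to 6.15, 6.90 and 5.57 with shKDM5A-1, and 5.30, 4.78 and 5.34 under shKDM5A-2. In both experiments each knockdown library was below its controls, by little in the siRNA experiment. The siRNA log2 fold changes of -0.34 (95% interval -0.70 to 0.02) and -0.33 (-0.69 to 0.02) were not called, with edgeR adjusted p of 0.129 and 0.135. The shRNA values of -0.37 ± 0.11 and -0.64 ± 0.12 were called, the first with an edgeR adjusted p of 0.00571 against 0.0533 with DESeq2.

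IL32 (chr16:3065297-3082192, plus strand), a cytokine with no close relative among the interleukins that induces other inflammatory cytokines, moved in opposite directions in the experiments. Its level rose from 4.81, 4.19 and 5.10 CPM in siControl to 8.94, 7.88 and 8.32 with siEglN2-1 and 8.30, 10.5 and 8.72 with siEglN2-2. It fell from 25.5, 24.5 and 24.5 CPM in shControl to 18.6, 17.4 and 18.9 with shKDM5A-1, and 11.8, 9.94 and 8.79 under shKDM5A-2. Every knockdown group was clear of its own controls. The log2 fold changes were 0.83 ± 0.12 and 0.97 ± 0.12 with the siRNAs, and -0.44 ± 0.07 and -1.29 ± 0.08 with the shRNAs. IL32 shares 129 exon bases with the small nuclear RNA gene RNU1-125P on the same strand.

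IL7R (chr5:35852695-35879603, plus strand), the alpha chain of the receptors for IL-7 and TSLP, was the only receptor among the members. It rose from 8.39, 7.43 and 7.01 CPM in siControl to 19.6, 18.7 and 19.1 with siEglN2-1 and 19.5, 18.5 and 19.6 with siEglN2-2. In the shRNA experiment it was at 22.4, 19.1 and 19.8 CPM in shControl, 15.5, 18.4 and 17.4 with shKDM5A-1, and 19.8, 20.9 and 20.3 under shKDM5A-2. The siRNA groups were far above their controls, shKDM5A-1 lay just below and shKDM5A-2 lay within the control range. The log2 fold change was 1.33 ± 0.09 with each siRNA, 2.51-fold and 2.52-fold higher. It was -0.25 ± 0.07 with shKDM5A-1 (edgeR adjusted p of 0.00395) and 0.00 with shKDM5A-2, with a 95% interval of -0.14 to 0.14.

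**Figure D2:**
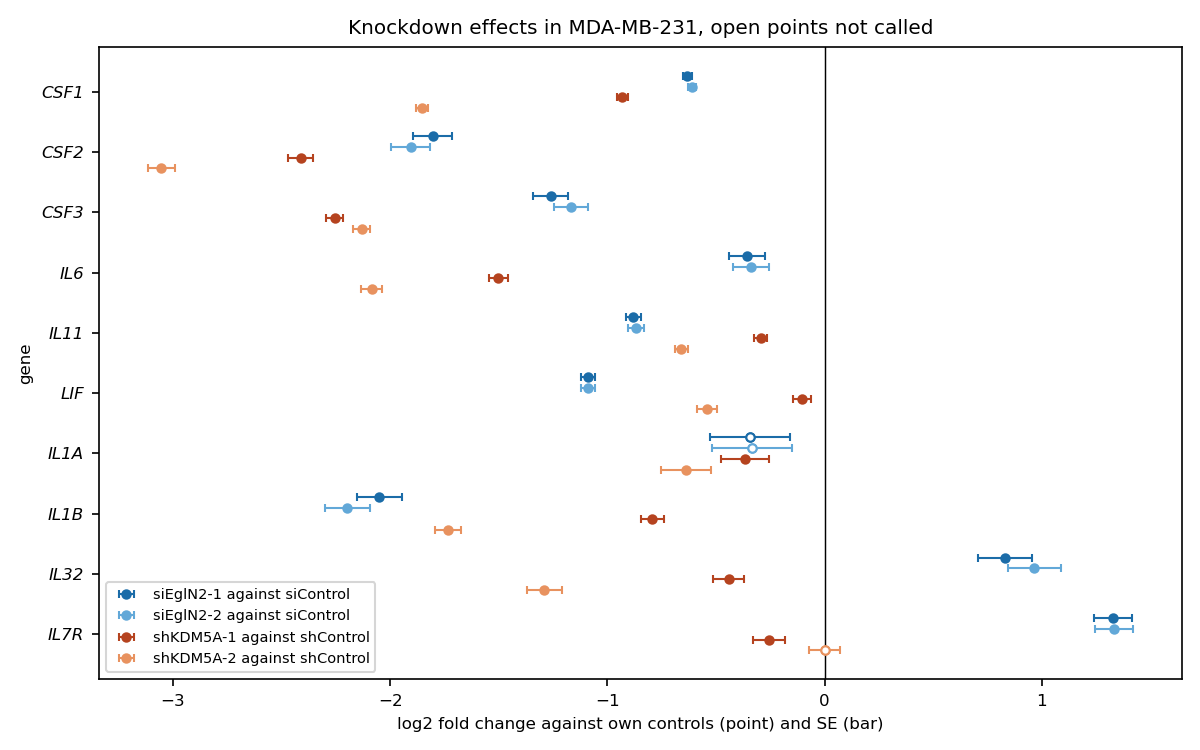
Log2 fold change of each member against its own controls in MDA-MB-231 for the 4 reagents, with bars for SE and open points where the adjusted p was 0.05 or more. The siRNA points lie together for each gene, whereas the shRNA points are apart for most, as for CSF1 at -0.93 and -1.85.

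The EglN2 siRNAs gave closely similar values, and the KDM5A shRNAs did not. Between siEglN2-2 and siEglN2-1, 0 members were called, beside 0.00662% of genes (1 of 15109), at edgeR adjusted p from 0.902 to 0.998 for the members, 0 had an unadjusted p under 0.05, and DESeq2 called 0 as well. The 95% interval of the log2 difference was -0.02 to 0.06 for CSF1 and -0.40 to 0.11 for IL1B, so differences within these bounds are not excluded. Between shKDM5A-2 and shKDM5A-1, 9 members were called, beside 56.6% of genes in either direction. CSF1, CSF2, IL6, IL11, LIF, IL1B and IL32 were lower with shKDM5A-2, with log2 differences of -0.92, -0.64, -0.58, -0.36, -0.44, -0.94 and -0.85, and IL7R was higher by 0.25. CSF3 was higher by 0.12 at an edgeR adjusted p of 0.0339, which was 0.0606 with DESeq2 and rose to 0.0558, 0.122 and 0.294 without shKDM5A-1 replicate 1, shKDM5A-1 replicate 2 or shKDM5A-2 replicate 1. IL1A differed by -0.27, not called at an edgeR adjusted p of 0.0517, and called at 0.0247 without shKDM5A-1 replicate 3. KDM5A itself was at 16.1 to 17.4 CPM with shKDM5A-1 and 18.3 to 19.4 CPM with shKDM5A-2, a log2 difference of 0.16 that was not called (edgeR adjusted p of 0.0636).

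The control levels of the 2 experiments differed for most members. In a fit of the 6 MDA-MB-231 control libraries, 8 of 10 members were higher in shControl than in siControl and LIF was lower, beside 25.7% and 26.5% of 14658 genes. CSF3 was at 24.4 ± 0.184 CPM (SD, n = 3) in siControl and 179 ± 3.50 CPM in shControl, 7.34-fold higher. IL6 was at 15.9 ± 0.944 and 92.5 ± 1.199 CPM, 5.80-fold higher, and IL32 at 4.68 ± 0.463 and 24.5 ± 0.553 CPM, 5.22-fold higher. CSF2, IL1B, IL7R and IL1A were higher by 1.78, 1.89, 1.40 and 1.24 on the log2 scale and IL11 by 0.53. LIF was lower in shControl, at 98.6 ± 2.12 CPM against 156 ± 1.75 CPM, a log2 difference of -0.66. The control groups of CSF1 overlapped, and it was not called at 655 ± 8.75 and 661 ± 8.05 CPM (log2 difference 0.01, 95% interval -0.03 to 0.06). Control type, experiment and deposited table cannot be told apart in this comparison.

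**Figure D3:**
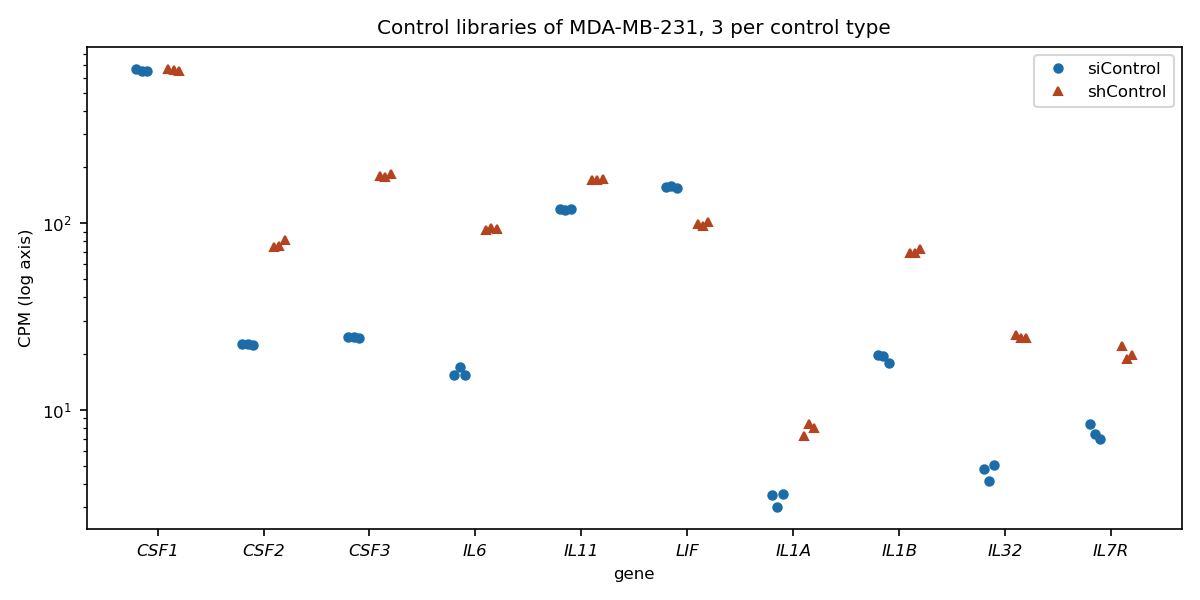
Level of each member, in CPM on a log axis, in the 3 siControl (circles) and 3 shControl (triangles) libraries of MDA-MB-231. The shControl points lie above the siControl points for 8 members, at the same height for CSF1 and below for LIF.

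Per kilobase of exon (the union of GENCODE 29 exons), the order of the members also differed between controls. CSF1 was first in both, at 121 CPM per kb in siControl and 124 in shControl. In siControl, IL11, LIF and CSF2 followed at 44.5, 39.6 and 28.7 CPM per kb, and in shControl CSF2, CSF3 and IL11 followed at 99.0, 82.0 and 65.1. IL6 was at 7.74 and 45.4 CPM per kb, and IL1B at 6.17 and 23.1, in siControl and shControl. IL32, IL1A and IL7R were the lowest of the members in both, at 1.46, 1.58 and 1.26 CPM per kb in siControl and 7.74, 3.76 and 3.37 in shControl. In siControl these last genes were close to one another: IL1A at 1.42 to 1.67 overlapped IL32 at 1.31 to 1.59, which overlapped IL7R at 1.16 to 1.38. In shControl, IL1A at 3.46 to 3.996 overlapped IL7R at 3.15 to 3.69. No other neighbours in either order overlapped.

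The effects of the targets were compared directly in a fit of all 18 MDA-MB-231 libraries, as the mean of both siRNAs minus the mean of both shRNAs, each against its own controls. For 9 of 10 members this difference was called, beside 53.8% of 15432 genes. It was above 0 for IL32 at 1.76, IL7R at 1.45, IL6 at 1.44, CSF3 at 0.97, CSF2 at 0.87 and CSF1 at 0.77 on the log2 scale. It was below 0 for IL1B at -0.87, LIF at -0.77 and IL11 at -0.40, which fell further with the siRNAs. IL1A did not differ beyond its spread at 0.16, with a 95% interval of -0.18 to 0.50 and an edgeR adjusted p of 0.465. Each target was studied in its own experiment with its own type of reagent, so target, reagent type and control level cannot be told apart.

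In 293T the 4 listed members were low, and few changes passed the test. CSF1 was the highest, at 8.57, 9.51 and 8.46 CPM in siControl, 10.1, 9.77 and 9.15 with siEglN2-1 and 10.0, 9.66 and 8.48 with siEglN2-2. LIF was at 2.49, 2.50 and 2.50 CPM in siControl, 2.12, 2.37 and 2.32 with siEglN2-1 and 2.54, 2.84 and 2.37 with siEglN2-2. Neither gene was called with either siRNA, and their log2 fold changes lay between -0.14 and 0.13. With siEglN2-1, 1 member was called, IL11, which was lower, beside 16.9% of 17622 genes called higher and 18.2% lower. With siEglN2-2 none was called in edgeR or DESeq2, and 0 had an unadjusted p under 0.05, beside 16.8% of genes called higher and 17.3% lower. Between the siRNAs, 0 members were called by either tool, 0 had an unadjusted p under 0.05 in edgeR, and 0% of genes were called.

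IL11 in 293T was at 0.675, 0.978 and 0.709 CPM in siControl, 0.297, 0.473 and 0.402 with siEglN2-1 and 0.479, 0.503 and 0.866 with siEglN2-2, from 7 to 25 counts. The siEglN2-1 libraries lay below the controls, and the siEglN2-2 libraries overlapped them. With siEglN2-1 the log2 fold change was -1.01 ± 0.33 (edgeR adjusted p of 0.0372), and with DESeq2 the adjusted p was 0.0980. That call was lost, at adjusted p of 0.126, 0.129, 0.0584 and 0.0888, without siControl replicate 2 or siEglN2-1 replicate 1, 2 or 3, and stayed, at 0.0321, without the unnumbered control. IL32 was at 0.675, 0.391 and 0.851 CPM in siControl, 0.933, 1.08 and 0.892 with siEglN2-1 and 0.767, 0.898 and 0.775 with siEglN2-2. Its log2 fold change of 0.61 ± 0.28 with siEglN2-1 was not called (edgeR adjusted p of 0.115) and became 0.86, called at 0.0469, without the unnumbered control.

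In the 293T shRNA experiment, shKDM5A-1 lowered CSF1 and shKDM5A-2 raised LIF and IL32. CSF1 was at 5.47, 5.33 and 5.82 CPM in shControl, 4.88, 3.78 and 4.50 with shKDM5A-1, and 5.14, 6.68 and 5.98 under shKDM5A-2. LIF was at 1.84, 1.86 and 2.64 CPM in shControl, 2.02, 1.86 and 1.73 with shKDM5A-1, and 4.15, 3.03 and 3.77 under shKDM5A-2. For LIF the shKDM5A-2 libraries were all above the controls, with a log2 fold change of 0.79 ± 0.18 and an edgeR adjusted p of 6.44e-04. IL32 was at 0.460, 0.719 and 0.979 CPM in shControl, 0.655, 1.02 and 0.577 with shKDM5A-1, and 1.47, 1.15 and 1.61 under shKDM5A-2. It was higher by 0.96 ± 0.31 with shKDM5A-2 (edgeR adjusted p of 0.0131), a call lost, at 0.0920 and 0.0705, without shControl replicate 1 or shKDM5A-2 replicate 3, and for which DESeq2 gave no adjusted p. The log2 fold change of CSF1 with shKDM5A-1 was -0.34 ± 0.13, called at an edgeR adjusted p of 0.0369. DESeq2 gave 0.155 for it, and the call was lost, at 0.0628, 0.0538, 0.117, 0.203 and 0.0615, without shControl replicate 1, 2 or 3 or shKDM5A-1 replicate 2 or 3. IL11 was at 1.02, 1.02 and 1.27 CPM in shControl, 0.953, 0.452 and 0.866 with shKDM5A-1, and 0.840, 0.940 and 0.966 under shKDM5A-2, and was called with neither.

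Of 17376 genes tested there, shKDM5A-1 had 21.6% called higher and 20.6% lower, and shKDM5A-2 had 19.5% in each direction. Between shKDM5A-2 and shKDM5A-1, 49.3% of genes differed, and of the members CSF1, IL32 and LIF were higher with shKDM5A-2 by 0.44, 0.91 and 0.96 on the log2 scale. The CSF1 difference was lost, at an adjusted p of 0.0519, without shKDM5A-1 replicate 2. The IL32 difference had an edgeR adjusted p of 0.0186 and a DESeq2 adjusted p of 0.0808, and was lost, at 0.0709, 0.0923 and 0.0829, without shKDM5A-1 replicate 1 or 3 or shKDM5A-2 replicate 3.

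**Figure D4:**
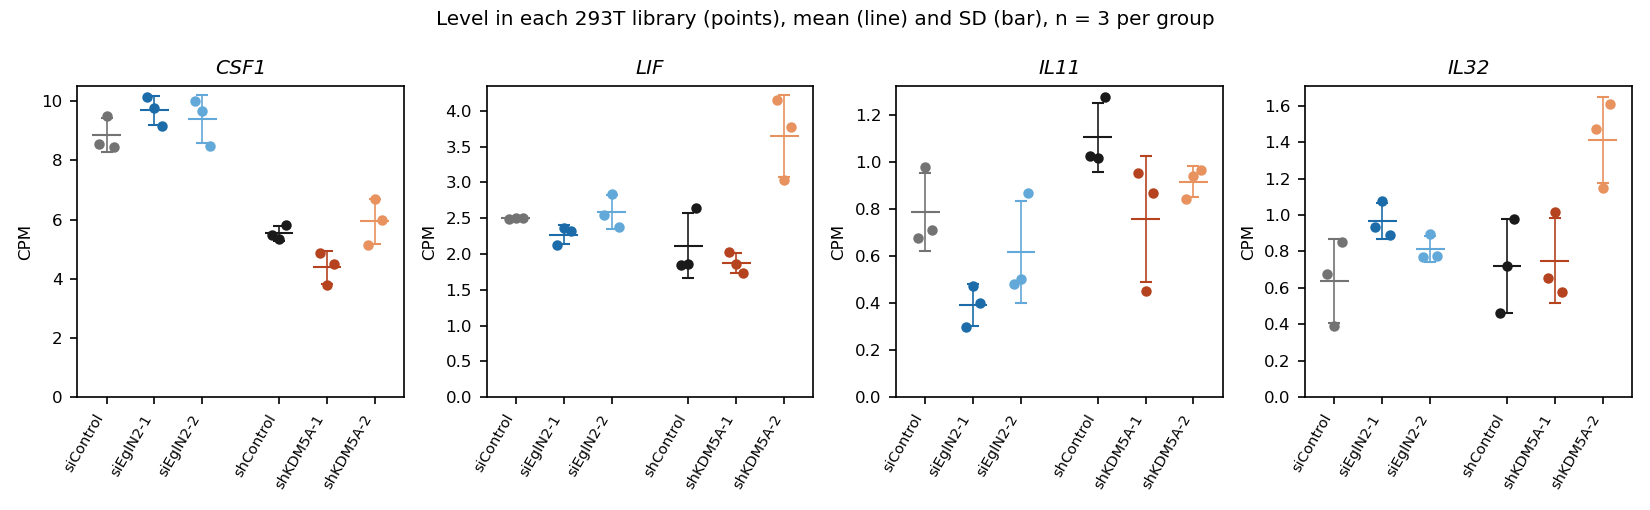
Level of the 4 members listed in 293T, in CPM, in its 18 libraries, with lines for group means and bars for SD over 3 libraries. CSF1 has the highest level of the 4 genes, and the shKDM5A-2 libraries are the highest for LIF and IL32.

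The difference between lines was tested for the 4 shared members as an interaction, the effect in MDA-MB-231 minus that in 293T. For EglN2, 2 of 4 were called, beside 31.2% of 14579 genes: CSF1 at -0.72 and LIF at -1.04 on the log2 scale, both lower in MDA-MB-231 relative to the controls of each line. Without the unnumbered control these were -0.70 and -1.05, and the uncalled values of IL11 and IL32 that follow were -0.11 and 0.15. IL11 differed by -0.17 (95% interval -0.62 to 0.27) and IL32 by 0.40 (-0.10 to 0.91), neither called. For KDM5A, 3 of 4 were called, beside 44.7% of 14767 genes: CSF1 at -1.28, IL32 at -1.38 and LIF at -0.64. IL11 differed by -0.08 (-0.49 to 0.33) and was not called. The counts of IL11 and IL32 in 293T were low, so these intervals are approximate and can be too narrow. Differences inside them, or somewhat beyond, are not excluded.

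Of 16 receptor genes of the family tested, 6 rose and 2 fell with both siRNAs, beside 18.3% and 20.4% of all genes, and 8 did neither. Of 19 tested in the shRNA experiment, 1 rose and 8 fell with both shRNAs, beside 16.4% and 15.8%, and 10 did neither. The median over the receptors was 0.18 and -0.25 on the log2 scale, beside 0.00 and -0.01 for all genes. CSF1R, the receptor of CSF1, fell from 6.03 and 6.10 CPM in the controls, with log2 fold changes of -0.64 and -0.69 with the siRNAs and -1.42 and -1.03 with the shRNAs. IL6ST, the gp130 chain shared by IL6, IL11 and LIF, rose from 271 CPM by 0.33 and 0.38 on the log2 scale with the siRNAs. IL6R, the private receptor of IL6, rose from 1.66 CPM with the shRNAs, by 1.62 and 0.88 on the log2 scale. IL1R1 fell with the shRNAs, with log2 fold changes of -0.81 and -0.72, as did CRLF2, the partner of IL7R in the TSLP receptor, with -1.03 and -1.06. IL1RAP, the partner of IL1R1, rose by 0.22 and 0.29 on the log2 scale with the siRNAs.

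Of 18 genes that process IL1B or carry the IL-1 signal, 8 rose and 4 fell with both siRNAs, beside 18.3% and 20.4% of all genes. With both shRNAs, 2 rose and 5 fell, beside 16.4% and 15.8%. While IL1B fell with the siRNAs, CASP1, its protease, rose by 0.96 and 0.99 on the log2 scale, CASP4, an inflammatory caspase, by 0.73 and 0.71, and MYD88, the receptor adaptor, by 0.97 and 0.95. TOLLIP, an inhibitor of this signal, fell with the siRNAs, with log2 fold changes of -0.36 and -0.35, and rose with the shRNAs, with 0.41 and 0.69. The kinase genes IRAK2 and IRAK3 fell with the shRNAs, with log2 fold changes of -0.94 and -1.57 for IRAK2 and -0.88 with each for IRAK3, and IRAK1 rose by 0.87 and 0.86 on the log2 scale.

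Of 20 JAK-STAT genes tested in each experiment, 7 rose and 4 fell with both siRNAs, beside 18.3% and 20.4% of all genes, and 5 rose and 5 fell with both shRNAs, beside 16.4% and 15.8%. SOCS1, a feedback inhibitor induced by cytokines, fell with all 4 reagents, with log2 fold changes of -0.64, -0.80, -0.86 and -1.46. SOCS2, of the same inhibitor family, rose with all 4, by 0.42, 0.43, 0.67 and 0.91 on the log2 scale. Among other interleukins and their partners, 2 rose and 1 fell of 10 with both siRNAs, and 1 rose and 2 fell of 11 with both shRNAs. CLCF1, a further ligand of the gp130 group, fell with the siRNAs, with log2 fold changes of -0.55 and -0.53. EBI3, a subunit of IL-27, fell with the shRNAs, with -1.16 and -2.11, and IL24, of the IL-10 family, rose by 0.73 and 1.04 on the log2 scale.

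Of 16 genes that bear on cytokine mRNA decay, 4 rose and 5 fell with both reagents in each experiment, beside 18.3% and 20.4% of all genes with the siRNAs and 16.4% and 15.8% with the shRNAs. ZFP36L2, which binds AUUUA elements, fell with the siRNAs, with log2 fold changes of -0.80 and -0.83, while ZFP36L1, of the same family, rose by 0.16 and 0.19 on the log2 scale. ZC3H12A, an endonuclease known to cut IL6 mRNA, fell with the shRNAs from 67.4 CPM in shControl to 29.7 and 18.4 CPM, with log2 fold changes of -1.19 and -1.88. Its level in siControl was 16.3 CPM. RC3H2, a Roquin protein gene, rose with all 4 reagents, by 0.44, 0.54, 0.40 and 0.55 on the log2 scale.

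The genes most like 3 of the members over the 12 MDA-MB-231 knockdown libraries were found by the root-mean-square distance of log2 CPM relative to own controls, among 14889 genes. For CSF2 they were ASB2, PADI4 and CSF3, at distances of 0.45, 0.62 and 0.66. For IL6 they were NDRG1, MARCKSL1 and SAT1, all nearer, at 0.19, 0.19 and 0.23. For IL1B they were AGPAT9, HR and S100A2 at 0.61, 0.61 and 0.64, so no gene tracked IL1B or CSF2 as closely as these tracked IL6.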

How the data were processed

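RNA-seq values of 36 libraries in 4 deposited tables were used. The raw columns hold counts per the file headers; 49.3% to 50.4% of the deposited numbers are whole (remainder of exactly 0), so they are read as estimated counts and were rounded. The deposited log2 normalized columns, whose transformation is not stated, were not used. Of these, 1 matches no single sample. The submitters' processing notes list STAR 2.4.2, Salmon 0.1.19, GRCh38 and hg19, with no roles. In each table the lowest row maximum was 10. Rows whose symbols had become dates (20 to 22 per table, 0.194% to 0.209% of counts) were left out. In 293T, 1 raw siControl column carries no replicate number.

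Each table of 9 libraries was fitted with edgeR 4.0.16 in R 4.3.3 (TMM, genes kept by filterByExpr at a minimum count of 10, robust two-sided quasi-likelihood F-test), with Benjamini-Hochberg adjustment over all genes tested and a call at an adjusted p under 0.05. All listed members passed the filter. The baseline of controls and the differences between lines and targets came from joint fits over genes shared by the tables. CPM are counts on TMM-scaled totals.

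The members and gene lists were chosen with earlier results of these data known. Named list genes had to be called in 1 direction with both reagents, at most 4 per list, ranked by the smaller log2 fold change, of which some are given here. Alternatives were DESeq2 1.42.0, median-of-ratios scaling, no filter, the 6 libraries alone, a replicate block and each library left out. The tables list no gene whose highest count was under 10, so an unlisted gene is low, not shown to be absent.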

Additional observations from a re-analysis of the deposited data

Results flagged for a closer look

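For 5 values the effect of a knockdown differed between the cell lines by an interaction test in edgeR, the effect in MDA-MB-231 minus that in 293T. For EglN2, CSF1 differed by -0.72 (adjusted p of 1.93e-07) and LIF by -1.04 (1.49e-07) on the log2 scale. For KDM5A, CSF1 differed by -1.28 (3.00e-14), IL32 by -1.38 (1.83e-05) and LIF by -0.64 (0.00192). In MDA-MB-231 these genes fell with both reagents of the target, LIF with shKDM5A-1 at a log2 fold change of -0.10. In 293T, LIF and IL32 rose with shKDM5A-2. The IL32 call there was lost without shControl replicate 1 or shKDM5A-2 replicate 3, and DESeq2 gave it no adjusted p. With shKDM5A-1 in 293T, LIF was at -0.17 and IL32 at 0.06, and neither was called. For LIF with shKDM5A-1 the values of the lines were thus close. The background is 31.2% of genes for EglN2 and 44.7% for KDM5A.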

How the results depend on the processing

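With DESeq2 the count of called members went, in 293T, from 1 to 0 for siEglN2-1, from 1 to 0 for shKDM5A-1, from 3 to 2 between the shRNAs and from 2 to 1 for shKDM5A-2. The last is no lost call, since DESeq2 gave IL32 no adjusted p there. In MDA-MB-231 it went from 10 to 8 for shKDM5A-1 and from 9 to 8 between the shRNAs. With each library left out in turn, the counts ranged from 0 to 2 for siEglN2-1, 0 to 1 for shKDM5A-1 and 1 to 2 for shKDM5A-2 in 293T, and in MDA-MB-231 from 9 to 10 for shKDM5A-1 and 8 to 10 between the shRNAs. Of 112 member values, median-of-ratios scaling changed the call or sign of 0, and leaving out the low-count filter changed 1. DESeq2 lost 6 calls among the 110 values it gave an adjusted p, and the 6 libraries of a comparison alone lost 1 call and reversed 1 value of 84. Of 1140 values with a library left out, 23 lost the call, 2 gained it and 23 reversed.

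The correlations between equally numbered libraries reached at most 0.0773 over 34 pairs, so equal numbers showed no shared pattern over all genes. A factor shared by them that acts on few genes would not show this way, and the labels give no batch. A replicate block changed no count of called members by over 1.5 times and reversed 2 uncalled values, IL7R with shKDM5A-2 in MDA-MB-231 at -0.0002 and IL11 between lines for EglN2 at 0.0839. That IL7R value, 0.00 as reported, was also -0.0022 without the filter and -0.0004 in its 6 libraries alone. Other uncalled values near 0 changed sign when a library was left out. In MDA-MB-231 these were IL7R with shKDM5A-2, from -0.0424 to 0.0622, and between the siRNAs IL1A, from -0.1437 to 0.1024, IL7R, from -0.0104 to 0.0295, IL6, from -0.0265 to 0.0555, IL11, from -0.0279 to 0.0334, and LIF, from -0.0279 to 0.0243. In 293T these were LIF with siEglN2-2, from -0.0264 to 0.1103, CSF1 between the siRNAs, from -0.0908 to 0.0207, and with shKDM5A-1 IL32, from -0.2264 to 0.3307, and LIF, from -0.2607 to 0.0189. IL11 between lines for KDM5A ranged from -0.2122 to 0.0217. The cause of these moves was not tested. IL11 and IL32 in 293T rest on 7 to 35 counts per library.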
